A study of Homo sapiens with 2 samples.

Results

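The myocyte enhancer factor 2 (MEF2) transcription factors MEF2A, MEF2C and MEF2D and the class IIa histone deacetylases HDAC4, HDAC5, HDAC7 and HDAC9 were compared between 2 stably transfected lines of SK-N-MC. These 7 genes were chosen by name, together with all probe sets annotated to 1 of them alone, out of 19775 genes with such probe sets on the array. SK-N-MC is a human line that the submitters call neuroepithelioma and that is nowadays counted among Ewing tumours. One line, vector control 1, carried the empty pCMV-Script expression vector, and the other, hyperexpression clone 4, carried the cDNA of human melanotransferrin in that vector, after Lipofectin transfection in both cases. Each line was measured on 1 Affymetrix U133 Plus 2.0 array, so no SD over replicates and no test of the lines against each other can be given, and a property of a single clone cannot be told apart from an effect of melanotransferrin. Melanotransferrin is a membrane-bound relative of the iron carrier transferrin, and the study asked what its overproduction does to other transcripts.

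MEF2 factors are DNA-binding proteins of the MADS-box family that bind an A/T-rich element and drive genes of muscle, neurons, lymphocytes and vessels. Class IIa deacetylases have little deacetylase activity of their own. They bind MEF2 on DNA and bring in HDAC3 with the NCOR corepressors, so that MEF2 target genes are kept low. Kinases that respond to calcium and other signals phosphorylate the class IIa proteins, which then bind 14-3-3 proteins and leave the nucleus. HDAC9 is itself known as a target of MEF2, and MEF2 factors can act on MEF2 genes.

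To show where such an element lies in these genes, the RefSeq windows of 300 bases around annotated gene starts (250 before and 50 from the start on, GRCh38.p14) were searched on both strands. The table held 22 windows for 6 of the 7 genes; HDAC5 had none. The MEF2 consensus was in 3 of these windows, 1 each for MEF2A, MEF2C and HDAC9, and in 3% of all 34943 windows. Its form in the MEF2A window, the decamer CTAAAAATAG, was also in the HDAC9 window, and so in 2 of the 22 windows and in 50 of all windows (0.143%); the decamer was chosen because MEF2A holds it. A match of letters is a description of the window and does not show that a factor binds there. The 2 windows with the decamer are given below on the plus strand, which is the strand of both genes, with the match in capitals; HDAC9 holds it as its reverse complement. The MEF2A stretch is chr15:99565734-99565983 and ends just before 1 of 3 starts listed for the gene, with the first base of the match 23 bases before that start. The HDAC9 stretch is chr7:18086575-18086826, at 1 of 5 starts listed for the gene. Its match begins 8 bases before that start and covers the first 2 bases of the transcript that begins there.
MEF2A: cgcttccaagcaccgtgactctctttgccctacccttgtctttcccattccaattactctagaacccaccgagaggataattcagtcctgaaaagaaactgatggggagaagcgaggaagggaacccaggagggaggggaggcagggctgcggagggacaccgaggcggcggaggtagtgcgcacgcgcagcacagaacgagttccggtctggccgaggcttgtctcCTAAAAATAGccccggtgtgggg
HDAC9: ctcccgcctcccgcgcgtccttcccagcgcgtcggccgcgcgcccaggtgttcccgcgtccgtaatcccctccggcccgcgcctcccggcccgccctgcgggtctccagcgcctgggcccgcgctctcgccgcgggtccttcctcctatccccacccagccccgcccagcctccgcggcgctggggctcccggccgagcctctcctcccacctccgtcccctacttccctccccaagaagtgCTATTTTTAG

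Signals are the deposited linear intensities, which differ in probe affinity, so they are compared between arrays within a probe set and never between probe sets. A signal under 208, the 90th percentile of 191 probe sets for genes of smell, bitter taste and hair, was taken as not above background (the floor), and a probe set at or over this floor on both arrays is called readable on both. The median of those background probe sets was 67.4 for the control and 44.0 for the clone. The array that carried the melanotransferrin clone read 4449.4 on 1 of the 4 MELTF probe sets, against 18.4 in the control, and the other 3 showed no such difference. Of 5 Ewing tumour markers with a probe set, CD99, NKX2-2, STEAP1 and BCL11B were readable on both arrays with signals of 9897.9 or more, and KCNAB3 was dim, at 164.6 in the control and 257.3 in the clone. Of 11 skeletal and cardiac muscle markers with a probe set, 7 were under the floor on both arrays and none was above it on both, and the summed signals of the 11 were 1932 in the control and 890.2 in the clone. MYOD1, MYOG, DES and CKM were among the 7. TNNT3, MYF6 and ACTA1 were over the floor in the control alone, at 681.7 and 155.7, at 326 and 38.7 and at 279.1 and 35.5, and ACTC1 in the clone alone, at 119.7 and 315.7. These sums include signals under the floor. Summed alike, neuron markers gave 2076.5 and 1396.3, vascular endothelium 1895.4 and 1419.2, and T cell 723 and 322.7. The B cell sum went the other way, at 1399 and 1496.6, as did the Ewing tumour sum, at 77591.1 and 91001.7. Single markers did not all follow their sum. In the B cell list CD79A (837 and 1115.3) and CD79B (184.3 and 210) were higher in the clone. PAX5 (286.5 and 84.9) and MS4A1 (91.2 and 86.4) were lower. Among 3 measured endothelium markers, CDH5 was above the median ratio of all genes, at 169.2 and 424.8, and 2 were below it. Of all 19775 genes with a probe set, 12663 were over the floor on 1 array or both. The part of the muscle markers in the MEF2 values was not tested. Ratios are given as log2 of clone over control, with a negative value for a lower clone signal.

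Of the 22 probe sets for the 7 genes, 14 were readable on both arrays, 1 in the control alone and 7 on neither. With each gene taken by the probe set of highest mean signal, 0 of the 7 members reached a ratio of 2 upward in the clone and 0 downward. Over all 12663 measured genes the shares were 1.21% and 1.9%. At a ratio of 1.5 the counts were again 0 and 0, beside 5.38% and 8.43% of all genes. The median log2 ratio of the 7 genes was -0.020, and that of all measured genes -0.022. Single probe sets went further: 1 of the 14 was at least 2-fold lower and 4 were at least 1.5-fold lower, against 1.33% and 7.53% of the 20191 probe sets readable on both arrays. None of the 14 was at least 1.5-fold higher, against 5.85% of all of them (1.11% were at least 2-fold higher). Of these 4 probe sets, 3 belonged to MEF2A and 1 to HDAC5. These directions hold for the scaling as deposited: centred on the hybridisation spikes the median of all genes moved to 0.47 and centred on the poly-A spikes to -0.58.

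**Figure D1:**
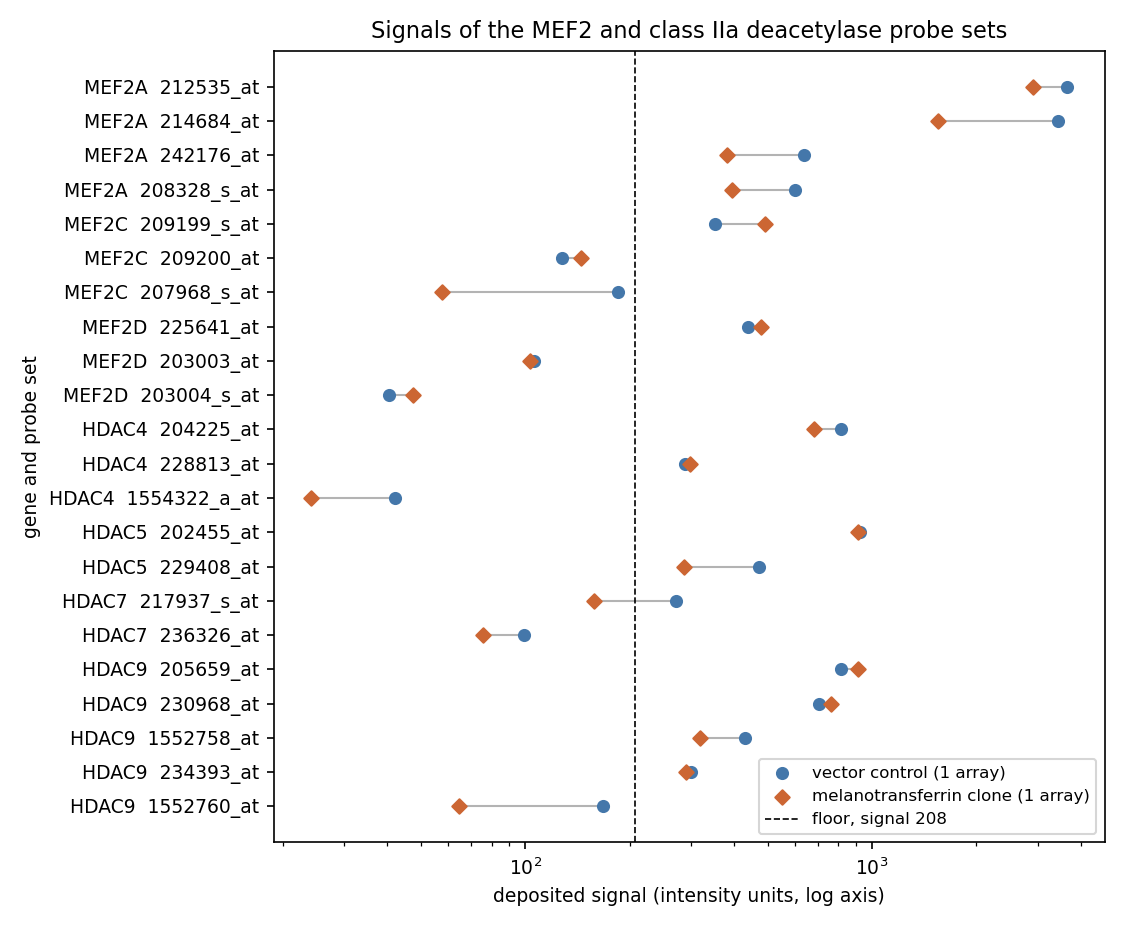
Deposited signal (log axis) of all 22 probe sets of the 7 genes on the vector control array (circles) and on the melanotransferrin clone array (diamonds), 1 array each, with the floor of 208 as a dashed line. The 4 MEF2A probe sets lie over the floor with the clone to the left of the control, and 7 probe sets of other genes lie under the floor on both arrays.

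MEF2A, on chromosome 15, encodes a broadly expressed MEF2 factor that is prominent in muscle and neurons, and it had the lowest median ratio of the 6 members readable on both arrays. The submitters' group has reported MEF2A in melanotransferrin models, perhaps in part from these arrays, so its direction is not independent evidence. Probe set 212535_at read 3646.9 in the control against 2901.9 in the clone, and 214684_at read 3431.3 and 1547.8. Probe set 242176_at read 634.6 and 380.8, and 208328_s_at, which can share sequence with other transcripts, read 598.4 and 394.2. The clone was thus the lower array on all 4 probe sets with the arrays as deposited, and on 3 of 4 when they were centred on the hybridisation spikes, where 212535_at turned to 0.17. The arrays read pooled RNA of a culture, so fewer cells with the transcript and less transcript per cell cannot be told apart.

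The log2 ratios of the 4 MEF2A probe sets were -0.33, -1.15, -0.74 and -0.60 in the order just given. Their median of -0.67 corresponds to a 1.59-fold lower signal, and their SD was 0.34 (n = 4 probe sets on the same arrays). Probe sets of 1 gene had a pooled SD of 0.35 over the 5387 genes that had at least 2 of them readable on both arrays, and 0.21 where all were over 2000. This spread covers disagreement between probe sets on the same RNA, not variation between cultures or clones. The first 2 probe sets differed from each other by 0.82, so the size of the MEF2A difference depends on which is read: the first gives 1.26-fold and the second is past 2-fold. Which MEF2A transcript forms each probe set reads was not tested, as probe sequences were not used. Of all probe sets readable on both arrays, 18.4%, 0.693%, 4.25% and 7.04% had a ratio as low as or lower than these 4, in the same order. Among probe sets on the same side of a mean signal of 1000, the shares were 11.8%, 0.202%, 8.36% and 13.0%.

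**Figure D2:**
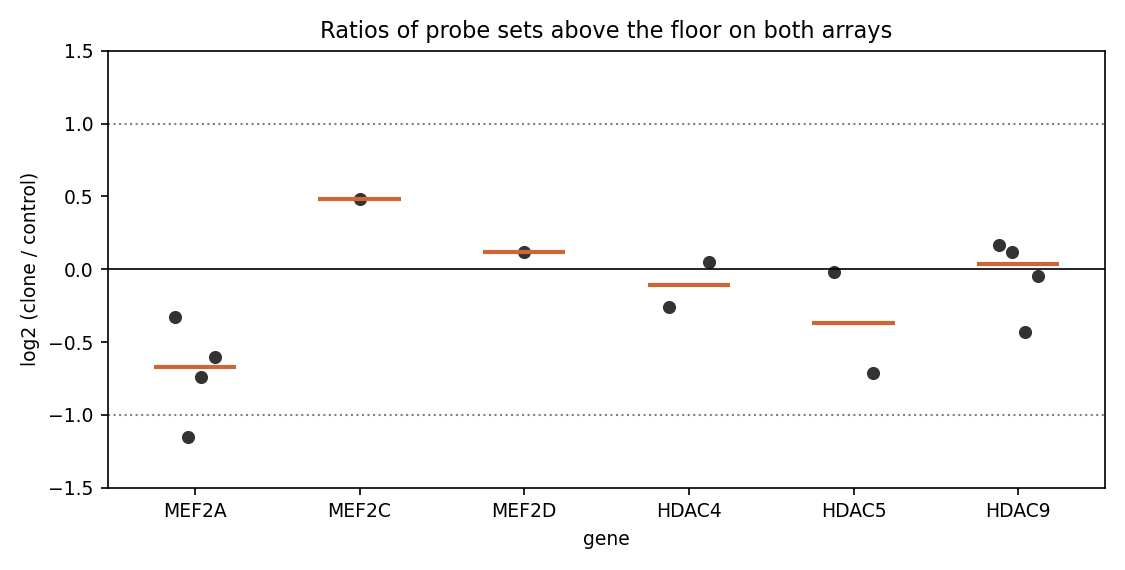
Log2 ratio of clone over control for the 14 probe sets readable on both arrays (points) and their median per gene (bars), arrays as deposited; dotted lines mark 2-fold. MEF2A has its 4 points between -1.15 and -0.33, whereas HDAC9 has 2 on each side of 0; HDAC7 has no such probe set.

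Genes with at least 4 probe sets readable on both arrays give a reading of MEF2A against genes measured as often. There were 974 such genes, and in 97 of them (9.96%) all probe sets were lower in the clone. In 5 genes, MEF2A included (0.513%), all were lower and the median was as low as that of MEF2A. Of the 974 genes, taken at any brightness over the floor, 38.8% had an SD between probe sets as large as that of MEF2A or larger. The 2 brightest MEF2A probe sets differed by 0.82. The pooled SD of 0.21 for genes with all probe sets over 2000 is a spread about the gene mean, not a difference of 2 values. MEF2A is not among those genes, since 242176_at and 208328_s_at read under 2000. The 3 genes nearest to MEF2A in median log2 ratio, among those with all probe sets lower, were COL1A1 (a type I collagen chain), SCD (stearoyl-CoA desaturase) and LIN7A (a scaffold protein of cell junctions). Their medians were -0.67, -0.67 and -0.68, each over 4 probe sets. Likeness here is the distance in 1 ratio from 2 arrays, and says nothing of shared expression over conditions.

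**Figure D3:**
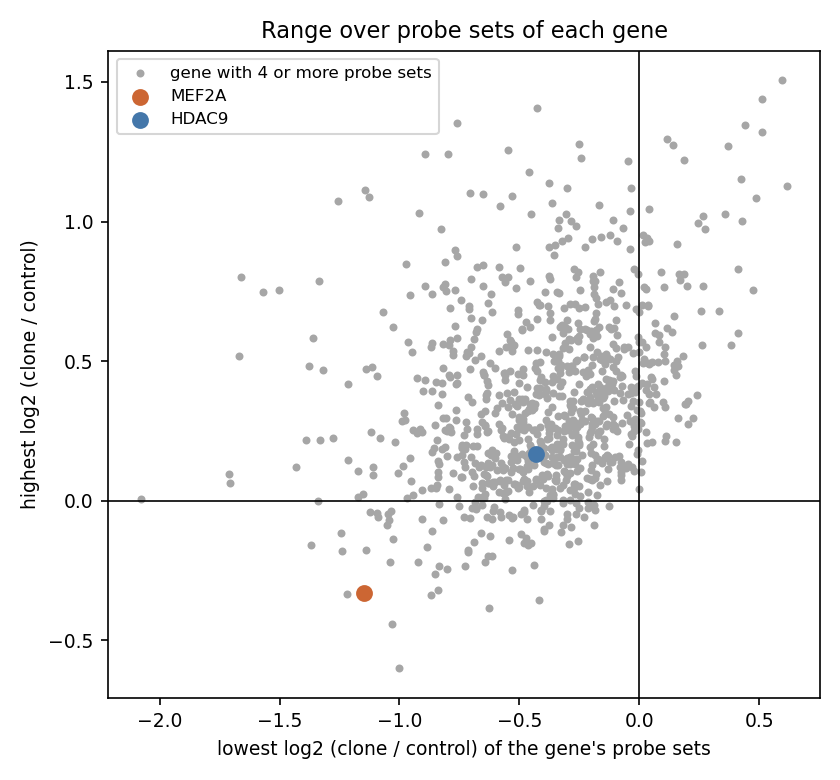
Lowest (horizontal) against highest (vertical) log2 ratio over the probe sets of each of the 974 genes with at least 4 readable on both arrays, as deposited. MEF2A (orange) lies in the lower left, with all its probe sets under 0, and HDAC9 (blue) lies among the bulk of genes with probe sets on both sides of 0.

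The other MEF2 factors did not share this pattern. MEF2C (chromosome 5), a factor of neural, lymphoid and heart development, had 1 of 3 probe sets above the floor: 209199_s_at read 353.4 for the control and 492.9 for the clone. That is a log2 ratio of 0.48, or 1.39-fold higher in the clone, on a probe set that can share sequence, and it turned to -0.13 centred on the poly-A spikes. The other MEF2C probe sets were under the floor, at 127.9 and 144.6 for 209200_at and at 184.9 and 57.6 for 207968_s_at. MEF2D (chromosome 1), another broadly expressed factor, had only 225641_at above the floor, at 440.4 and 478.9, a log2 ratio of 0.12 that lies within the 0.40 pooled SD of dim probe sets. Its other probe sets read 105.8 and 103.1, and 40.4 and 47.6. The fourth factor of the family, MEF2B, has a probe set that is annotated to several genes and was therefore not counted; it read 192 and 26, under the floor on both arrays. An antisense transcript annotated at MEF2C, MEF2C-AS1, was also under the floor, at 144.3 and 58.3.

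Among the deacetylases, HDAC5 and HDAC9 had probe sets that disagreed. HDAC5 (chromosome 17), which with HDAC9 restrains growth of heart muscle, read 924.5 in the control against 911.6 in the clone on 202455_at and 471.4 and 287.6 on 229408_at. The log2 ratios were -0.020 and -0.71, so 1 probe set gave nearly equal arrays and the other a 1.64-fold lower clone, a ratio that 4.67% of all probe sets readable on both arrays matched or lay below (9.11% of those with a mean signal under 1000). HDAC9 (chromosome 7) is also made as a short form without the catalytic domain, called MITR. It had 4 of 5 probe sets above the floor. They read 812.7 and 911.7 (205659_at), 701.2 and 762.4 (230968_at), 428.9 and 318.2 (1552758_at), and 300.9 and 291.1 (234393_at).

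For HDAC9 the clone was thus higher on 2 probe sets and lower on 2, with log2 ratios of 0.17, 0.12, -0.43 and -0.048. Their median was 0.036 and their SD 0.27 (n = 4 probe sets), and 0 of the 4 reached 1.5-fold. The fifth HDAC9 probe set, 1552760_at, read 167.3 and 64.6, under the floor. Whether the lower 1552758_at reads another HDAC9 form than the rest was not tested. The decamer shown above is in 1 of 3 windows of MEF2A, which had low ratios, and in 1 of 5 of HDAC9, with ratios around 0. Whether the decamer has a part in these ratios was not tested.

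HDAC4 (chromosome 2), a regulator of bone and muscle growth, read 811.4 in the control against 678.8 in the clone on 204225_at. Its second probe set above the floor, 228813_at, read 288.9 and 298.5. The log2 ratios of -0.26 and 0.047 lie on both sides of 0, and the third probe set was under the floor, at 42.2 and 24.2. The antisense HDAC4-AS1 read 102.4 and 94.9. HDAC7 (chromosome 12), known for roles in vessels and thymocytes, was over the floor in the control alone: 217937_s_at read 272.5 and 158.1, a signal at least 1.31-fold lower in the clone when the clone is set to the floor. Of all measured genes 11.3% were likewise over it in the control alone, and background probe sets were also dimmer on the clone array; their part in the HDAC7 value was not tested. The second HDAC7 probe set read 99.1 and 75.6.

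The 6 genes with a probe set readable on both arrays kept MEF2A as the lowest and MEF2C as the highest under each scaling shown. The spike and median scalings multiply the clone array by 1 factor, so the order of the genes could not change there. Only the quantile, loess and background settings could alter it. The place of MEF2C rests on 1 dim probe set that can share sequence. With the hybridisation spikes as reference the medians ran from -0.17 for MEF2A to 0.98 for MEF2C, and with the poly-A spikes from -1.28 to -0.13. Measured from the median of all genes, the MEF2A median was -0.65 as deposited and between -0.75 and -0.59 in the 10 other settings that gave it. In each of these settings all MEF2A probe sets above the floor lay under the median of all genes. That median reads each gene by its brightest probe set, unlike the MEF2A median over probe sets. Read by its own brightest probe set, MEF2A stood -0.31 from it as deposited, and 19.1% of measured genes had a ratio as low or lower. The spike and median scalings shift MEF2A and the other genes alike, so a similar distance there is no separate support.

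**Figure D4:**
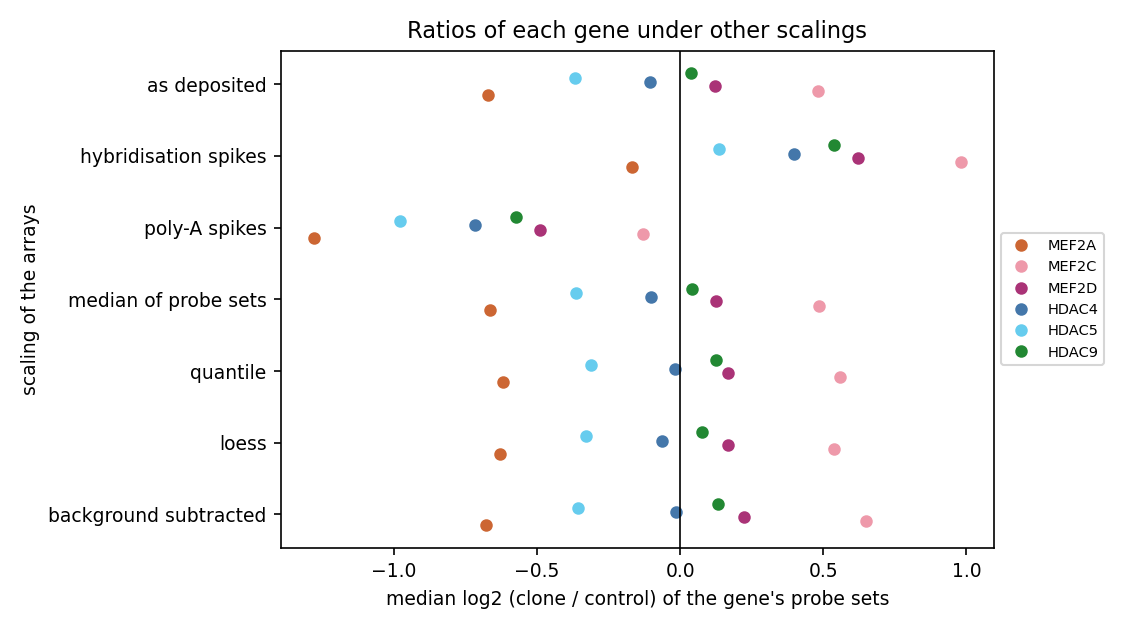
Median log2 ratio of clone over control over the probe sets of each gene readable on both arrays, for 6 genes (colours), under the deposited scaling and 6 others (rows). MEF2A is the lowest in each row and MEF2C the highest. The spike and median rows move all genes together, so their order of genes is that of the deposited scaling. In the spike rows MEF2C turns to -0.13 on the poly-A spikes. HDAC4, HDAC5, HDAC9 and MEF2D are all above 0 on the hybridisation spikes.

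Genes that act on MEF2 and the class IIa deacetylases, deacetylases of other classes and MEF2 targets were taken from 7 lists. The lists held 93 genes, 69 of them measured. Of these, 2 were at least 2-fold higher and 1 at least 2-fold lower, which is 2.90% and 1.45%, against 1.21% and 1.9% of all measured genes. The medians of the lists below are as deposited; all were above 0 on the hybridisation spikes and under 0 on the poly-A spikes.

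The kinases that phosphorylate class IIa deacetylases, or that activate such kinases, had a median log2 ratio of 0.20 over 15 measured genes of 19, with 10 above the median of all genes. That median was 0.0096 with each gene read by the median of its probe sets, 0.061 on probe sets without shared sequence and 0.10 with the floor 2 times as high. MARK2, a kinase of cell polarity, was the 1 member past 2-fold. It read 168.5 in the control, under the floor, and 563.7 in the clone, at least 2.71-fold higher, on a probe set that can share sequence; its second probe set read 61.7 and 213. PRKD1, protein kinase D1, read 977.6 and 1422 (log2 ratio 0.54), and CAMKK2, which activates calcium/calmodulin kinases, read 4094.2 and 5817.8 (0.51). PRKD3, another protein kinase D, read 5542 and 5948.5. SIK1, a salt-inducible kinase, had the lowest ratio, at 448.1 and 261.5 (-0.78).

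The 14-3-3 proteins, which hold phosphorylated class IIa deacetylases outside the nucleus, were all 7 measured, with 0 past 2-fold in either direction and a median of -0.13. YWHAQ read 36715.4 and 36351, and YWHAG 32289.6 and 29690.7. The range ran from YWHAE, at 19271.3 and 15358.7 (-0.33), to YWHAB, at 22611.7 and 26612 (0.24). For calcineurin, the calcium-dependent phosphatase that acts on MEF2 and NFAT factors, and its regulators, 7 of 10 genes were measured with a median of 0.079 and 0 past 2-fold. The catalytic subunit PPP3CA read 4031.3 and 4846.9 (0.27), the regulator RCAN3 4344.9 and 5418.5 (0.32), and the subunit PPP3CC 614.9 and 427.2 (-0.53).

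Among MAP kinases that phosphorylate MEF2 and the kinases upstream of them, 6 of 8 genes were measured and the median was -0.061. MAPK11, a p38 kinase, was the 1 member past 2-fold, at 222 in the control, just above the floor, and 471.5 in the clone (2.12-fold higher), on a probe set that can share sequence. Its other 2 probe sets were under the floor, at 37.2 and 48.3 and at 24.1 and 9.8. MAPK7, also known as ERK5, read 846.5 and 739.2 (-0.20), and its activator MAP2K5 read 2666.5 and 2766.9. MAP2K6, an activator of p38, read 2571.6 and 2399.6.

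Co-regulators of MEF2 and the deacetylases were near equal on the arrays, with a median of -0.0057 over 15 of 17 genes and 0 past 2-fold. TBL1XR1, a subunit of the NCOR complex, read 14404.5 and 14619.8, and CBX5, a heterochromatin protein, 14948.2 and 15248.9. KAT2B, an acetyltransferase, read 353 and 242 (-0.54), and MAML1, a coactivator, 4349.6 and 5016.7 (0.21). The deacetylases of the other classes had a median of -0.13 over 5 of 6 genes, also with 0 past 2-fold. HDAC1 read 17025.6 and 16202.1, HDAC2 22052.3 and 20115.4, HDAC8 1299.2 and 1287.4, and HDAC10, a class IIb enzyme, 484.7 and 281.4 (-0.78).

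Of 26 genes known as MEF2 targets in muscle, neurons or lymphocytes, 25 had a probe set and 11 of these were under the floor on both arrays. By the same reading, 12663 of all 19775 genes with a probe set were measured, and the rest were under the floor on both arrays. The 14 measured targets had a median of 0.044, with 8 above and 6 below the median of all genes. The median of the targets ran from -0.18 to 0.25 over the settings without spikes. NPPA, the atrial natriuretic peptide, was the 1 member past 2-fold, at 426.9 in the control and 75.2 in the clone, at least 2.05-fold lower on its single probe set, which can share sequence. MARK2, MAPK11 and NPPA, the 3 genes past 2-fold in these pathway lists, thus all rest on such probe sets. Of 20 targets with a promoter window, 2 held the decamer CTAAAAATAG, JUN and XIRP2, and 5 the MEF2 consensus. Over all 27167 genes with a window, 0.18% held the decamer and 3.68% the consensus. The targets were listed because MEF2 is known to act on them, so their share is not independent evidence. XIRP2, an actin-binding protein of muscle, was under the floor, at 177.5 and 6, and JUN, an immediate-early factor, read 3704 and 2965.5 (-0.32). HOMER1, a synaptic scaffold, read 2716.1 and 2312.2 (-0.23). KLF2, a factor of vessels and lymphocytes, read 669.6 and 388.8 (-0.78), and NR4A1, an immediate-early nuclear receptor, went the other way at 430.4 and 665.5 (0.63). The targets thus had members on both sides, with the lowest and highest ratios above the floor at 1.72-fold lower and 1.55-fold higher.

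**Figure D5:**
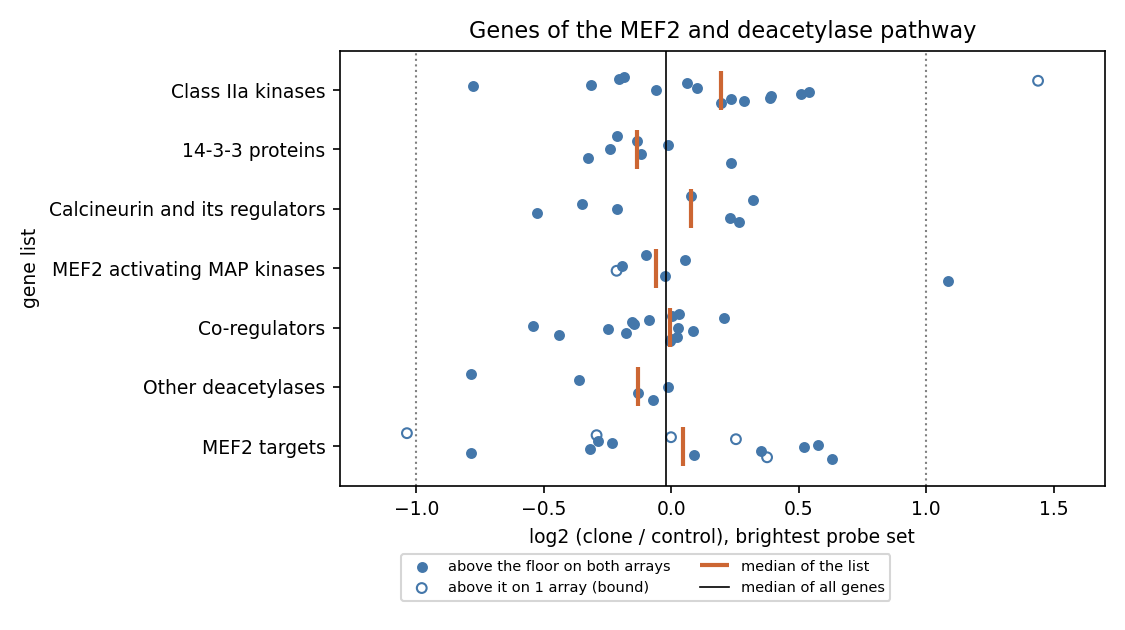
Log2 ratio of clone over control of the 69 measured genes in 7 lists (rows), by the probe set of highest mean signal, as deposited; filled points are readable on both arrays, open points are over the floor on 1 array and so bounds, and orange bars are list medians. The medians lie between -0.13 and 0.20, near the line at the median of all genes (-0.022); all turn above 0 on the hybridisation spikes and under 0 on the poly-A spikes.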

How the data were processed

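The deposited values are linear intensity values, 1 per probe set and array, for 54675 probe sets. GCOS 1.3 was used, per the submitters' processing notes, and how signals were summarised and to which target they were scaled is not given in the sources used here. Arrays were scaled by the authors: the mean signal without the lowest and highest 2% was 1000.12 on both, so a change of most transcripts alike cannot be seen. The number of arrays limits the precision.

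Names of probe sets came from the 2016 platform annotation; 41097 had 1 gene, 1801 several and 11777 none here, and only the first kind was used. Symbols were updated by gene ID through RefSeq (GRCh38.p14), which matched 41043. Each gene was read by the probe set of highest mean signal; one over the floor on 1 array was compared with the floor ("at least"). Genes were counted at a fixed ratio of 2, with no p-value. The members and lists were chosen with earlier results of these data known. Named list genes were those past 2-fold, the 2 with the highest signal and those with the highest and lowest ratio in each list. Likeness to MEF2A was the distance in median log2 ratio among genes with at least 4 probe sets readable on both arrays, all lower. Neighbouring genes were taken from the RefSeq order, a choice made after the values of the members were seen. Promoter windows are RefSeq's.

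Alternatives were other scalings (hybridisation spikes, 18 probe sets; poly-A spikes, 24; median; quantile; loess), background subtraction, other floors, the median over probe sets, probe sets without shared sequence and a ratio of 1.5. Calculations in Python 3.11.15 used pandas 2.3.3, numpy 2.4.6, matplotlib 3.10.9 and statsmodels 0.14.6 and were tested on simulated data.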

Additional observations from a re-analysis of the deposited data

How the results depend on the processing

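In all settings run, 0 members passed 2-fold in either direction, the ratio of 1.5 included. The settings were changed 1 at a time, and all but 1 read each gene by its brightest probe set. On the poly-A spikes, 3 of the 4 MEF2A probe sets were at least 2-fold lower in the clone. As deposited, the MEF2A median over probe sets was 1.59-fold lower, past a ratio of 1.5, but that ratio was not run with this reading. The count of all genes past 2-fold was 393 (153 higher and 240 lower). It was 975 centred on the hybridisation spikes (918 and 57), 1535 on the poly-A spikes (17 and 1518), 695 with background subtracted, 118 with the floor 2 times as high (71 and 47), 5054 with no floor and 1748 at a ratio of 1.5. With the floor of each array on its own the split was 147 and 401.

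Centred on the hybridisation spikes, the log2 ratios of the members' brightest probe sets were 0.17 for MEF2A, 0.98 for MEF2C, 0.62 for MEF2D, 0.24 for HDAC4, 0.48 for HDAC5 and 0.67 for HDAC9, and the MEF2A median over probe sets was -0.17. On the poly-A spikes they were -0.94, -0.13, -0.49, -0.87, -0.63 and -0.44, and the MEF2A median -1.28. HDAC7 read -0.79 with no floor. In the same spike settings, the list medians were 0.60 and -0.38 for class IIa kinases, 0.37 and -0.74 for 14-3-3 proteins, 0.58 and -0.53 for calcineurin, 0.44 and -0.59 for MAP kinases, 0.50 and -0.62 for co-regulators, 0.37 and -0.74 for other deacetylases and, on the hybridisation spikes, 0.43 for MEF2 targets. A spike setting multiplies the clone array by 1 factor, so all ratios move together.

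In the other settings the MEF2A median ran from -0.74 to -0.62, and the ratio by its brightest probe set, or by the median of its probe sets, from -0.67 to -0.32. HDAC5 ran from -0.37 to 0.018. The list medians ran from 0.0096 to 0.34 for class IIa kinases, -0.21 to -0.11 for 14-3-3 proteins and -0.25 to -0.072 for other deacetylases. They turned direction for calcineurin (-0.067 to 0.11), MAP kinases (-0.20 to 0.071), co-regulators (-0.14 to 0.021) and MEF2 targets (-0.18 to 0.25). No paired analysis was possible because each group has 1 array.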

Other observations

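The 7 genes lie on 7 different chromosomes, and the ratios of their neighbours were read to see how far each member stands from its surroundings. Around MEF2A, the 5 nearest genes on each side readable on both arrays had log2 ratios from -0.22 to 0.41, with 5 of 10 lower in the clone and a median of 0.0022. The nearest, LRRC28 and LYSMD4, stood at -0.13 and 0.13, and IGF1R, the receptor of insulin-like growth factors, read 3020.3 and 3589.3. The 4 MEF2A probe sets, at -0.33 and lower, all lay below the lowest of these neighbours. The 348 genes of chromosome 15 readable on both arrays had a median of -0.029.

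The neighbours of HDAC7 (median 0.020, 4 of 10 lower), HDAC9 (-0.014, 5 of 10) and MEF2C (0.041, 5 of 10) also had medians near 0. The medians were -0.12 around HDAC5 (5 of 10 lower) and -0.17 around MEF2D (7 of 10). Around HDAC4, 7 of 10 neighbours were lower, with a median of -0.36, among them HES6, a factor of neural differentiation, at 4541.7 and 3203.8. Around MEF2D, TMEM79 was past 2-fold, at 488.3 and 237.5, and GLMP, a lysosomal membrane protein, read 1811 and 979. Around HDAC9, TWIST1, a mesenchymal factor that lies next to it, read 20938.9 and 15265.6, a log2 ratio of -0.46. Around MEF2C, EDIL3, a matrix protein, read 4614.8 and 7952.2, a log2 ratio of 0.79. These values have no replicate and are given for the arrays as deposited.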
